A study of Mus musculus with 4 samples.

Results

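Transcripts of the Wnt signalling machinery were examined in OP9 cells, a mouse bone marrow stromal line that supports blood progenitors in culture. The genes were 19 Wnt ligands, 10 Frizzled receptors, 5 other Wnt receptors (Lrp5, Lrp6, Ror1, Ror2 and Ryk), 3 Dishevelled genes and Porcn, 38 genes of 27599 on the array. They were taken by name: every probe that the array annotation, or the transcript accession through the RefSeq gene table, assigns to one of these genes was used, which gave 52 probes of 41174, with at least 1 probe for each of the 38. The Control group was 2 samples of OP9 cells given the retroviral vector LZRS-IRES-GFP alone. The Wnt3A group was 2 samples of OP9 cells given the same vector carrying the Wnt3A gene. Both groups therefore carry the vector and its green fluorescent protein marker, and they differ by the inserted gene. The labels do not say whether the 2 samples of a group came from separate transductions or cultures, so the p-values measure only the spread between these samples. Each sample was read on 1 single-colour Agilent array after global PCR amplification of its messenger RNA. The comparison asked how Wnt3A changed the supporting cells, and here how far the genes that send and receive Wnt signals differed with it.

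Wnt proteins are secreted lipid-modified signals that act over short distances. Porcn, an enzyme of the endoplasmic reticulum, adds the lipid that Wnts need for secretion and for receptor binding. At the receiving cell a Wnt binds a Frizzled, a receptor with several membrane passes, together with Lrp5 or Lrp6, and Dishevelled proteins relay the signal so that beta-catenin is no longer degraded and can act with TCF/LEF factors on target genes. That branch is called canonical, and Wnt3a is its standard ligand. Some other ligands, with Wnt5a as the best known, mostly signal without beta-catenin, often through Ror1, Ror2 or Ryk. In bone marrow stroma, canonical Wnt signals are known for favouring bone-forming over fat-storing differentiation.

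The deposited table gives a linear intensity for each spot, and every array's median is 1. A probe was counted as above the floor where its intensity exceeded an estimated detection limit, which was 0.0533 to 0.0729 on the 4 arrays. Between 80.7% and 83.7% of spots were above it, so the floor is lenient. The 6 haematopoietic markers Ptprc, Cd68, Adgre1, Itgam, Csf1r and Cd3e were all above it in both groups, although a stromal line should lack most of them, so being above the floor is a statement about signal and not by itself about expression. Of 10 stromal markers, 9 were above it, all but Lum, and of 5 endothelial markers Kdr and Tek were below it on all 4 arrays. Array values correlated more within groups (Pearson's r 0.93 and 0.94 across 33709 probes, which are not independent replicates) than between them (0.876 to 0.885). The separately deposited scanner files did not match the table: by rank, each of the 4 columns resembled the Control replicate 2 file most (Spearman's rho 0.826 to 0.845). Which hybridisations the table was made from could not be settled from the files. Its columns carry the sample identifiers, and a value below is called Control or Wnt3A on that label alone. Results below are from the table, and the scanner values are given in the closing section.

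Wnt3a, the inserted gene, comes first. Its single probe read 0.0151 and 0.0134 in Control and 0.0112 and 0.123 in Wnt3A. Only Wnt3A replicate 2 was above the floor, and the groups overlapped, so Wnt3a did not enter the test. The probe starts at base 2599 of the transcript (chromosome 11, 59064352 to 59064411 on mm8, the build of the array annotation). Whether the retroviral insert holds that stretch is not given in the sources used here, so this reading gives no check of the insert or of the labels. The first 30 of its 60 bases are shown, as the array annotation gives them, to mark which part of the transcript was read.
Wnt3a: cctggaactttgcgttcgcgcttgtaactt

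In the Control arrays 35 of the 38 genes had a probe above the floor on both arrays, against 79.7% of all genes on the array. These were 16 of the 19 ligands, all 10 Frizzleds, all 5 other receptors, all 3 Dishevelleds and Porcn. The 3 that were not were Wnt2, Wnt3a and Wnt10a. Wnt2 read 0.203 and 0.0424 in the Control arrays, of which only the former was above the floor, and 0.0115 and 0.0190 in Wnt3A. Its groups did not overlap, with Wnt3A on the lower side, but it did not enter the test. Wnt10a read 0.0265 and 0.0140 in Control and 0.0546 and 0.0228 in Wnt3A, where only replicate 1 passed the floor. On the Wnt3A arrays 35 genes were above the floor too, beside 80% of all genes. With a floor 2 times as high, Wnt3 and Fzd3 dropped out of the Control count, leaving 33, against 73.5% of all genes. With a floor 4 times as high, Wnt2b, Wnt5a and Fzd6 dropped out too, leaving 30, against 66.4% of all genes. Where 2 probes read a gene they did not always give the same answer, and 29 of the 38 genes had every probe above the floor in Control. A share over all genes is not given for that count, so it is a description of the members only.

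**Figure D1:**
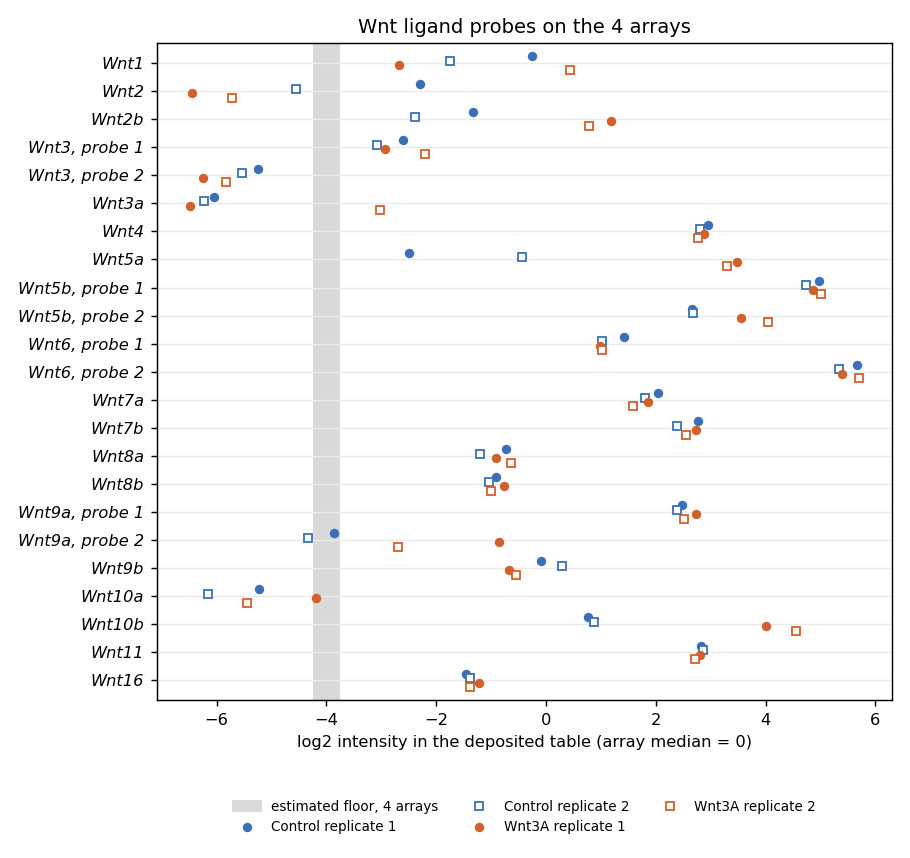
Log2 intensity of each Wnt ligand probe (rows, genes with several probes numbered by position in the transcript) on the 2 Control arrays (blue) and the 2 Wnt3A arrays (orange), circles for replicate 1 and squares for replicate 2; the grey band spans the estimated floors of the 4 arrays. Wnt5a, Wnt10b and Wnt2b have both Wnt3A arrays to the right of both Control arrays, Wnt4, Wnt7b and Wnt11 have all 4 close together, and Wnt1 differs between arrays of a group; levels of different rows are not comparable because probes differ in efficiency.

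None of the 35 measured genes passed the threshold between the groups. Limma called 0 of them higher and 0 lower at an adjusted p under 0.05, over 33709 probes tested, where 0.402% of all genes were called higher and 0.241% lower. At an unadjusted p under 0.05, 5 were higher (Wnt10b, Wnt5a, Wnt2b, Fzd2 and Dvl3) and 0 were lower, 14.3% of the 35 against 6.31% of all genes on the higher side and 6.34% on the lower. Each gene was read by its probe with the highest mean. The median difference of the 35 was 0.10 (log2, Wnt3A minus Control), beside -0.01 over all genes, and 23 genes lay above 0 and 12 below. That median was 0.24 without Control replicate 1 and -0.04 without Control replicate 2, so its sign turned on 1 array. The 2 groups did not overlap and differed by at least 2-fold in 8 genes on the higher side and 1 on the lower side, 22.9% and 2.86%, against 8.57% and 8.39% of all genes. The genes were chosen with earlier results of these data known, and no test was made over them as a list. With 2 arrays in each group, the smallest two-sided p of an exact permutation test is 0.333. Overlap was judged after scaling each array to its 75th percentile, so for a few genes whether the groups overlap differs between the printed intensities and the scaled values.

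The widest gaps were in 3 ligands. Wnt5a, a ligand of the beta-catenin-independent branch, read 0.178 and 0.734 in Control and 11.2 and 9.86 in Wnt3A. Both Wnt3A arrays stood far above both Control arrays, and the Control arrays differed from each other by 4.13-fold. The difference was 4.87 ± 0.73 (log2, SE, n = 2 arrays per group, 95% interval 2.91 to 6.84), and limma's adjusted p of 0.104 did not pass. It was 3.90 without Control replicate 1 and 5.84 without Control replicate 2. In the scanner files the difference was -0.41 with the processed signal after scaling, and Control replicate 1 was not well above background there. The probe starts at base 1301 of the transcript, and its 60 bases are spread over 3963 bases of chromosome 14 (27345426 to 27349388), so it spans a splice junction.

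Wnt10b, a canonical ligand known for holding back fat cell formation, read 1.70 and 1.83 in Control and 16.1 and 23.4 in Wnt3A. The groups were well apart, and arrays of a group lay close to each other. The difference was 3.47 ± 0.34 (log2, SE, n = 2, 95% interval 2.55 to 4.39), or 11.1-fold, with an adjusted p in limma of 0.0511, just beyond the threshold. Wnt10b was the only one of the 35 genes that passed under any alternative: it passed in 3 of 12 alternatives within the table, with adjusted p of 0.0254 to 0.206 across the 12. In the scanner files the difference was -0.14 with the processed signal. Its probe lies at 98600121 to 98600180 on chromosome 15.

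Wnt2b, another canonical ligand, read 0.397 and 0.191 in Control and 2.26 and 1.71 in Wnt3A. The groups did not overlap. The difference was 2.85 ± 0.52 (log2, SE, n = 2, 95% interval 1.45 to 4.24), with an adjusted p in limma of 0.140. Wnt2b has no scanner value beside it, since no group had both of its scanner files well above background. Its probe lies at 105073969 to 105074028 on chromosome 3. The first 30 of 60 bases of the 3 probes are given because these readings rest on a single probe each.
Wnt5a: caatgaagcaggccgtaggacagtatacaa
Wnt10b: cttcctcgaaggataatagcaggcattgtg
Wnt2b: tcatttacccagcaaatctttattttgtga
Over their whole length, the Wnt5a probe shared at most 14 bases in a row with a probe of any other gene on the array, and the Wnt2b probe at most 15. The Wnt10b probe shared no stretch of 14 or more.

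Marker genes of differentiated cells moved with the groups and are given beside these ligands. The summed intensity of 7 adipocyte markers was 899 and 1113 in Control and 123 and 88.2 in Wnt3A, and that of 6 osteoblast markers was 31.8 and 24.7 against 143 and 149. Most of the adipocyte sum came from Fabp4 (723 and 895 in Control and 104 and 69.5 in Wnt3A). Cfd overlapped, and the other adipocyte markers were on the lower side without overlap. In Control most of the osteoblast sum came from Bglap (23.7 and 15.7). Every osteoblast marker was on the higher side without overlap. Lpl, Sp7, Alpl, Ibsp and Pth1r passed in limma, though limma called 0 genes with the replicate number as a block. Alpl and Ibsp read below the floor in Control and entered the fit through the Wnt3A arrays alone. Their p-values in limma used those Control readings. All 7 adipocyte markers were above the floor in both groups, as were 4 of 6 osteoblast markers in Control and 6 of 6 in Wnt3A. The 6 haematopoietic markers summed to 8.49 and 6.47 in Control and 4.09 and 5.22 in Wnt3A, the 5 endothelial markers (2 above the floor in either group) to 1.25 and 1.69 against 1.19 and 0.854, and the 4 epithelial markers, all above the floor in both groups, to 9.71 and 7.04 against 7.24 and 8.02. The stromal markers summed to 601 and 887 in Control and 1464 and 1573 in Wnt3A, but did not move together: without overlap, the collagens Col1a1 (1.81), Col1a2 (1.35) and Col3a1 (4.27) were on the higher side, and Pdgfra (-2.25), Vcam1 (-1.61), Cxcl12 (-1.44) and Vim (-0.90) on the lower side, and none of these 7 passed in limma. In the haematopoietic sum the lower values were those of Cd68 (6.11 and 4.49 in Control and 1.69 and 2.34 in Wnt3A), while Adgre1 (0.29) and Csf1r (0.77) lay on the higher side. In the epithelial sum most came from Krt18, whose groups overlapped, and Epcam (-0.44), Cdh1 (-1.23) and Krt8 (-0.50) were on the lower side without overlap. The part of these shifts in the ligand values was not tested. In RNA of whole cultures, a different number of cells making a transcript and a different amount per cell cannot be told apart.

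By brightest probe, most other ligands had small estimated differences between the groups. A difference under 0.5 (log2) in size was found in 12 of the 16 measured ligands, beside 57.3% of all genes. The 12 include Wnt1, whose 95% interval was wide (-3.40 to 3.19). They also include Wnt5b and Wnt9a, whose other probes differed more and without overlap, as given below. Wnt11, a ligand of the beta-catenin-independent branch, read 7.10 and 7.28 in Control and 6.95 and 6.58 in Wnt3A. Wnt4 read 7.69 and 6.96 in Control and 7.34 and 6.82 in Wnt3A. The Wnt4 groups overlapped, and those of Wnt11 did so after scaling, although its printed intensities do not. The 95% intervals of the difference were -0.88 to 0.73 for Wnt11 and -0.88 to 0.80 for Wnt4. Wnt7a (-0.18), Wnt7b (0.08), Wnt8a (0.21), Wnt8b (0.11) and Wnt16 (0.13) also lay near 0. Of these 5, only Wnt16 had groups that did not overlap, by a margin that shows after scaling only.

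On the lower side, Wnt9b read 0.935 and 1.22 in Control and 0.624 and 0.681 in Wnt3A. The groups did not overlap, but the difference of -0.70 ± 0.31 (log2, SE, n = 2) had an adjusted p in limma of 0.447. Wnt6 was read by a pair of probes whose differences were 0.06 and -0.21. The groups overlapped for both probes.

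Wnt1 shows how array-to-array spread compares with spot error, because its probe is printed 10 times on each array. Its 10 spots had a mean of 0.834 in Control replicate 1 and 0.300 in Control replicate 2, with standard deviations over spots of 0.0318 and 0.0270. In the Wnt3A arrays the means were 0.158 and 1.36, with standard deviations of 0.0176 and 0.0591. Spots of an array agreed within 3.81% to 11.2% (coefficient of variation), whereas the Wnt3A arrays differed from each other by 8.66-fold and the Control arrays by 2.79-fold. The difference between the groups was -0.10 ± 1.22 (log2, SE, n = 2), the widest error among the 35 genes. Over all probes with several spots, the median standard deviation between spots was 0.08 to 0.10 (log2). Wnt1 is not typical of the spread between arrays. Over all genes kept, the median gap between arrays of a group was 0.45 (log2) in Control and 0.39 in Wnt3A.

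**Figure D2:**
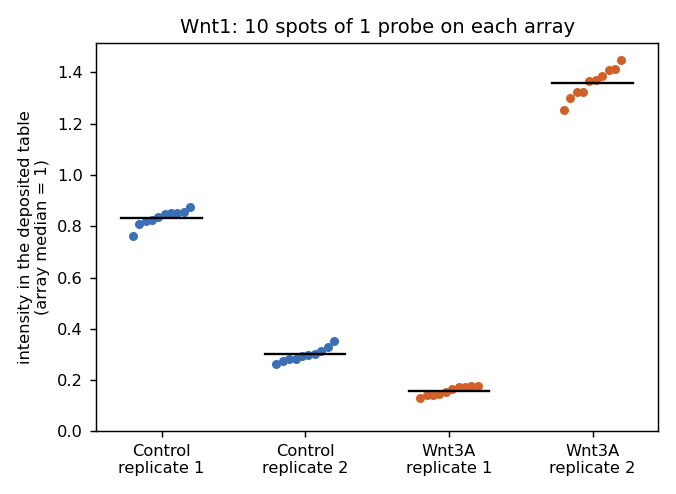
Intensity in the deposited table of the 10 spots of the Wnt1 probe on each array (points, sorted within an array; black lines are means; linear axis from 0). Spots of an array lie close together around 0.834, 0.300, 0.158 and 1.36, while arrays of the same group lie far apart.

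No Frizzled passed the threshold. By brightest probe, 7 of 10 lay above 0 and 3 below, with a median of 0.51 (log2), and 9 of 10 had groups that did not overlap, 6 higher and 3 lower. Over all genes 21.5% were higher and 23.7% lower without overlap. Fzd2 read 1.79 and 2.83 in Control and 6.10 and 6.72 in Wnt3A. Its Wnt3A values were close together and above both Control values. The difference was 1.52 ± 0.35 (log2, SE, n = 2, 95% interval 0.57 to 2.47), with an adjusted p in limma of 0.204. In the scanner files it was 0.19 with the processed signal and -0.84 with normexp background correction, and Control replicate 1 was not well above background.

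Fzd9 read 0.605 and 0.426 in Control and 0.841 and 2.56 in Wnt3A. Only Wnt3A replicate 2 stood clearly apart, and the difference of 1.54 ± 0.65 was 0.75 without it. Fzd1 read 0.708 and 2.69 in Control and 2.70 and 3.41 in Wnt3A. Control replicate 1 alone was low, and the difference of 1.15 ± 0.69 was 0.24 without it. Fzd4 binds Norrin as well as Wnts. Of the 35 measured genes it alone had a lower value of at least 2-fold without overlap. It read 0.484 and 0.720 in Control and 0.410 and 0.116 in Wnt3A. Its difference of -1.43 ± 0.72 (log2, SE, n = 2) had an adjusted p in limma of 0.501, and it was -0.50 without Wnt3A replicate 2.

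Fzd8 read 1.06 and 1.08 in Control and 1.71 and 1.41 in Wnt3A, a difference of 0.55 ± 0.31. Fzd10 read 4.39 and 5.50 in Control and 3.82 and 3.97 in Wnt3A, a difference of -0.33 ± 0.30. The arrays of these 2 genes did not overlap between groups, but their 95% intervals, -0.30 to 1.40 and -1.15 to 0.50, held 0. Fzd6 overlapped fully, with a difference of 0.02 ± 0.52, and Fzd3, close to the floor on all arrays (0.112 to 0.142), had one of -0.17 ± 0.30.

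**Figure D3:**
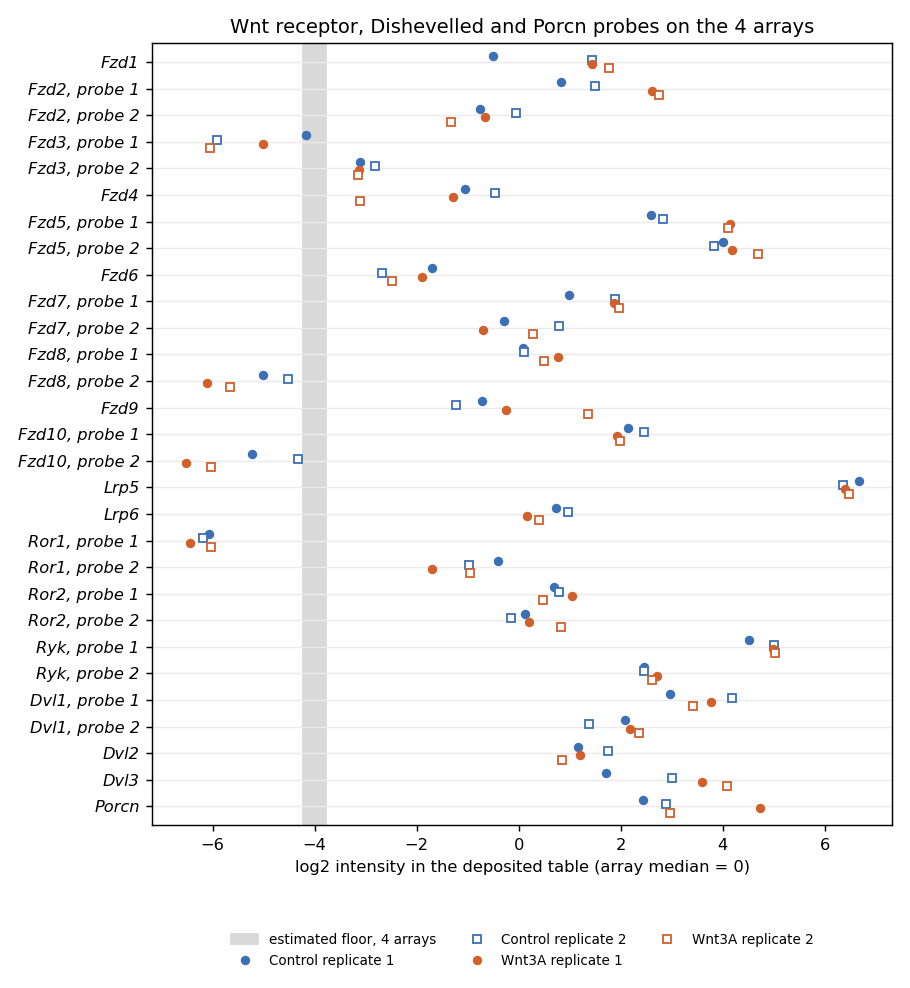
Log2 intensity of each probe of the Frizzleds, other Wnt receptors, Dishevelleds and Porcn (rows) on the 2 Control arrays (blue) and the 2 Wnt3A arrays (orange), with the span of the estimated floors in grey. The first Fzd2 and Fzd5 probes have both Wnt3A arrays to the right of both Control arrays, Lrp5 and Ryk have all 4 close together, and for Fzd3, Fzd8, Fzd10 and Ror1 1 probe lies above the floor on both Control arrays while the other does not.

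None of the 5 other receptors passed the threshold or differed by 1 (log2) by its brightest probe. Lrp5, a co-receptor of the canonical branch, read 102 and 82.4 in Control and 84.7 and 89.3 in Wnt3A. The arrays overlapped, with a difference of -0.06 ± 0.33 (log2, SE, n = 2, 95% interval -0.94 to 0.82). Lrp6, its close relative, read 1.65 and 1.95 in Control and 1.11 and 1.32 in Wnt3A. Those groups did not overlap, and the difference of -0.55 ± 0.31 had an adjusted p in limma of 0.539. Ryk, an atypical receptor with an extracellular Wnt-binding domain, read 23.0 and 32.3 in Control and 31.8 and 32.4 in Wnt3A by its brighter probe. Control replicate 1 alone was low. Both Ryk probes gave small differences, 0.25 and 0.21.

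Ror1 and Ror2 are receptor tyrosine kinases through which Wnt5a signals. Ror2 read 1.61 and 1.73 in Control and 2.06 and 1.39 in Wnt3A, with overlap and a difference of 0.03 ± 0.36. Ror1 read 0.758 and 0.507 in Control and 0.307 and 0.513 in Wnt3A, also with overlap, and its difference was -0.63 ± 0.45. The 95% intervals were -0.94 to 1.01 for Ror2 and -1.84 to 0.58 for Ror1. A second Ror2 probe read 1.08 and 0.906 in Control and 1.15 and 1.76 in Wnt3A, without overlap and with a difference of 0.53 ± 0.38.

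Dvl3, a Dishevelled relay protein, read 3.29 and 8.02 in Control and 12.0 and 17.0 in Wnt3A. The groups did not overlap, while the Control arrays differed by 2.44-fold. The difference was 1.49 ± 0.52 (log2, SE, n = 2, 95% interval 0.07 to 2.90), with an adjusted p in limma of 0.350, and it was 0.90 without Control replicate 1 and 2.08 without Control replicate 2. In the scanner files it was -0.77 with the processed signal. Dvl1 read 7.77 and 18.1 in Control and 13.6 and 10.7 in Wnt3A by its brighter probe, with full overlap. The other Dvl1 probe read 4.26 and 2.61 in Control and 4.53 and 5.15 in Wnt3A. Its groups did not overlap, with a difference of 0.55 ± 0.41 and an adjusted p in limma of 0.652. Dvl2 read 2.25 and 3.37 in Control and 2.29 and 1.79 in Wnt3A, a difference of -0.44 ± 0.36. Porcn read 5.45 and 7.41 in Control and 26.6 and 7.86 in Wnt3A. Wnt3A replicate 1 alone was high, and the difference of 1.20 ± 0.69 was 0.30 without it. In the scanner files it was -0.13 with the processed signal, where Control replicate 1 was not well above background.

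**Figure D4:**
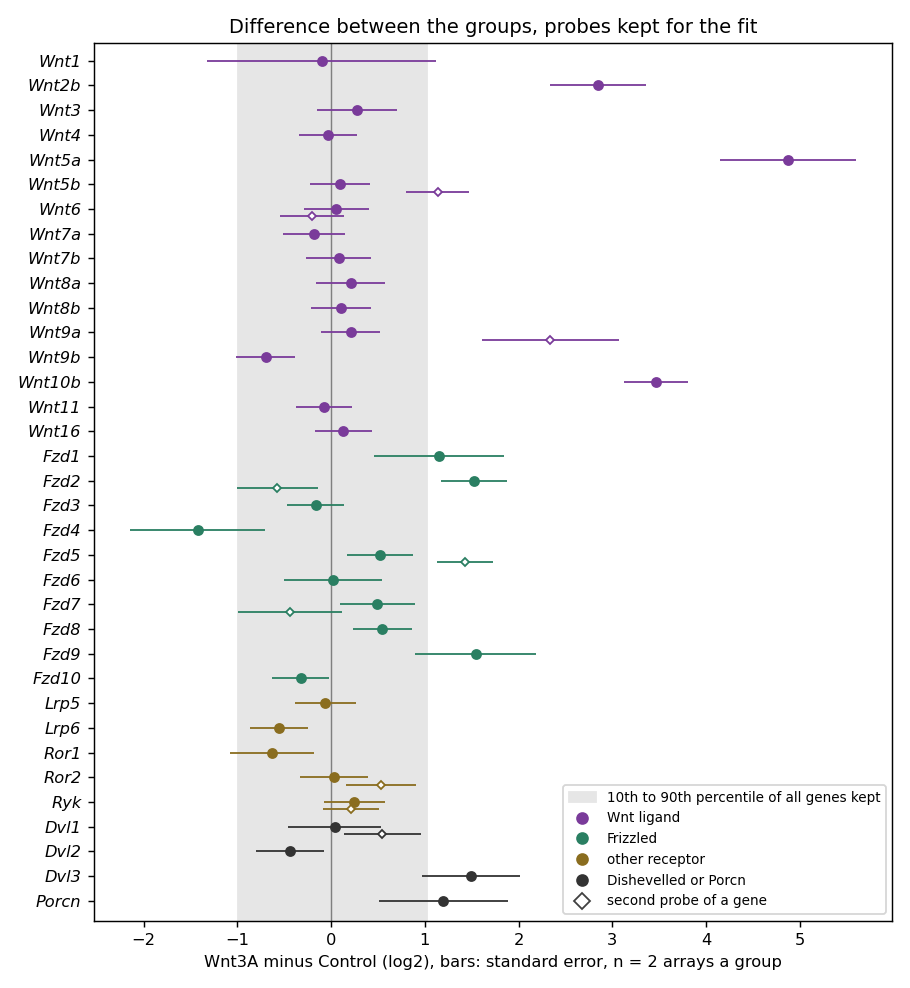
Difference between the groups (Wnt3A minus Control, log2) of every member probe kept for the fit, with the standard error as bars (n = 2 arrays a group); filled circles are a gene's brightest probe, open diamonds its second probe, and the grey band spans the 10th to 90th percentile of all genes, -0.99 to 1.02. Wnt5a (4.87), Wnt10b (3.47) and Wnt2b (2.85) lie farthest to the right, and the Fzd2 and Wnt9a probes differ from each other.

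Probes of a gene gave different values in several cases. Of 9 genes with a pair of kept probes, the differences lay over 1 (log2) apart in 3 and had opposite signs in 3, beside 34.9% and 43.8% of all genes with several kept probes. For Fzd2, the second probe read 0.590 and 0.960 in Control and 0.632 and 0.397 in Wnt3A, with overlap and a difference of -0.58 ± 0.43, opposite in sign to the first. For Fzd5, a receptor of canonical and other ligands, the brightest probe gave 0.53 ± 0.35, whereas the other read 6.01 and 7.10 in Control and 17.7 and 17.1 in Wnt3A, a difference of 1.42 ± 0.30 with an adjusted p in limma of 0.176.

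For Wnt5b, close in sequence to Wnt5a, the brightest probe read 31.5 and 26.6 in Control and 29.2 and 32.4 in Wnt3A. Those arrays overlapped. The other probe read 6.33 and 6.40 against 11.7 and 16.5, a difference of 1.14 ± 0.34. For Wnt9a, the brightest probe read 5.56 and 5.22 in Control and 6.67 and 5.72 in Wnt3A, whereas the other was below the floor in both Control arrays (0.0689 and 0.0494) and above it in both Wnt3A arrays (0.555 and 0.155). Against the floor, that probe was at least 4.44-fold higher in Wnt3A, or 2.22-fold with a floor 2 times as high, with an adjusted p in limma of 0.307. The p-value used the Control readings below the floor and does not measure these bounds. The second probes of Fzd5 and Wnt5b were singled out after their values were seen.

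The first 30 of 60 bases of these pairs are shown in transcript order, with the base of the transcript where each probe starts, because the pairs read different stretches of the same messenger RNA.
Fzd2, from base 1868: tcacagtctacatgatcaaatacctcatga
Fzd2, from base 3300: cgtgacattctatatcataagatattgata
Fzd5, from base 2015: acggggacccagtggctggcatctgctatg
Fzd5, from base 4790: gtatctaaaagttgtggggtggagcggatg
Wnt5b, from base 711: gtgagaagaactttgccaagggatcggagg
Wnt5b, from base 1594: ggaagatgagtgtctgtgaccctggccatt
Wnt9a, from base 774: acacaaatatgagacctcgctcaaggtggg
Wnt9a, from base 2959: aaacgtctgccggctggtttgtttctgtat
The probe with the wider gap was the earlier one in the transcript for Fzd2 and Fzd5, and the later one for Wnt5b and Wnt9a. In base composition the wider-gap probe had 50% G and C against 35% for Fzd2, 55% against 35% for Fzd5, 55% for both Wnt5b probes and 35% against 53.3% for Wnt9a.

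Pairs of probes also disagreed on the floor in 6 genes: Wnt3, Wnt9a, Fzd3, Fzd8, Fzd10 and Ror1. No share over all genes is given beside this count. For Fzd10, the probe from base 1874 read 3.82 to 5.50 on the 4 arrays and the probe from base 2817 read 0.0109 to 0.0496, below the floor throughout. For Wnt3, the close relative of Wnt3a, the probe from base 1139 read 0.165 and 0.118 in Control and 0.130 and 0.216 in Wnt3A, and the probe from base 2766 stayed below the floor on all arrays. For Fzd8 the second probe read 0.0145 to 0.0435, for Ror1 0.0114 to 0.0154 and for Fzd3 0.0151 to 0.0558, all below the floor.

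Several of these genes are neighbours in the genome, and their values were set side by side. On mm8 the Wnt10b and Wnt1 probes lie 21172 bases apart on chromosome 15, and the differences were 3.47 for Wnt10b and -0.10 for Wnt1. The Wnt9a and Wnt3a probes lie 82852 bases apart on chromosome 11, and those of Wnt9b and Wnt3 lie 88527 bases apart on the same chromosome, with differences of -0.70 and 0.28. The Wnt6 and Wnt10a probes lie 19272 bases apart on chromosome 1. In this last pair Wnt6 was above the floor on both Control arrays and Wnt10a on neither.

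The letters of the TCF/LEF motif were looked for in the 250 bases before each gene's start, since that motif is where beta-catenin partners bind. The letters searched were CTTTGAA together with the variant CTTTGAT, the further variant CTTTGTA and lastly the variant CTTTGTT, on both strands, in RefSeq promoters of GRCm38.p6. A promoter was at hand for 27 of the genes, and 3 of them (Wnt5b, Wnt11 and Fzd7) held a match, 11.1%, beside 16.8% of all 27025 genes. Wnt10b and Wnt2b held none, and Wnt5a was not among the 27. Such a match is a description of letters in this window only. The Fzd7 window is printed, with the match in capitals. Of the 3 genes it is the only one whose groups did not overlap by the brightest probe (chr1:59481897-59482146, plus strand, GRCm38.p6). Fzd7 read 1.98 and 3.70 in Control and 3.67 and 3.91 in Wnt3A by that probe, a difference of 0.49 ± 0.40 with an adjusted p in limma of 0.68; its values cross in the table and separate after scaling. The second Fzd7 probe read 0.813 and 1.73 in Control and 0.613 and 1.22 in Wnt3A, with overlap and the opposite sign (-0.44 ± 0.55).
Fzd7: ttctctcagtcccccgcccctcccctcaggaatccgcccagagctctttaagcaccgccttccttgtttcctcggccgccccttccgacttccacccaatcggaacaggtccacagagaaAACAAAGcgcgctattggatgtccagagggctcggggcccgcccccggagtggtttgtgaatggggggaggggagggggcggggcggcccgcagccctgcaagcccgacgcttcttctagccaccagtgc

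The rest of the pathway gives the setting. Of 65 other pathway genes in 6 lists, 62 were measured, and 4 passed, all higher in Wnt3A, 6.45% against the 0.402% of all genes. These calls ended in several alternatives: 0 passed in limma with either scanner signal, with the replicate block or without any one of the 4 arrays, 2 passed with no filter, and 1 where every array had to be above the floor. The lists were also written with earlier results known. The 4 were the secreted Wnt inhibitors Wif1 and Sfrp2, the R-spondin Rspo3, which strengthens Wnt signals at the receptor, and Nkd2, a Dishevelled-binding feedback inhibitor. Wif1 read 0.0191 and 0.0180 in the Control arrays, below the floor, and 14.8 and 21.2 in Wnt3A, at least 268-fold higher against the floor, with an adjusted p in limma of 0.0226. Sfrp2 was at least 230-fold higher (adjusted p in limma 0.0279) and Rspo3 at least 36.5-fold higher (adjusted p in limma 0.0293). Wif1, Sfrp2 and Rspo3 were below the floor in Control and entered the fit through the Wnt3A arrays alone. Their p-values in limma used those Control readings and do not measure the printed bounds. Of the 4, only Nkd2 was above the floor on the Control arrays. Nkd2 read 0.134 and 0.130 in Control and 8.65 and 15.7 in Wnt3A (adjusted p in limma 0.0293).

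Within the cell, the destruction complex that degrades beta-catenin had 0 of 11 genes past limma's threshold, with a median of -0.03 (log2) and 1 gene, Axin2, at an unadjusted p under 0.05. Axin2 read 0.0156 and 0.0138 in Control and 0.127 and 0.208 in Wnt3A, at least 2.45-fold higher against the floor, with an adjusted p in limma of 0.0645. That p-value used Control readings below the floor and does not measure the bound. Axin1, the other scaffold of that complex, differed by 0.38. Beta-catenin and its nuclear partners had 0 of 10 past the threshold, with a median of 0.42 and 2 genes at an unadjusted p under 0.05, Tcf7 (3.01 ± 0.41, adjusted p in limma 0.0892) and Lef1 (1.56 ± 0.44, adjusted p in limma 0.271). Of 12 measured antagonists and their receptors 2 passed, with a median of 0.52, and in the R-spondin arm 1 of 9 passed, Rnf43, a membrane E3 ligase that removes Frizzleds, having the next smallest p (3.45 ± 0.58, adjusted p in limma 0.125). Among the planar polarity and branch partners 1 of 18, Nkd2, passed, and the next smallest p was that of Nkd1 (2.86 ± 0.30, adjusted p in limma 0.0581). At an unadjusted p under 0.05 in limma, 4 of the 18 were higher and 2 lower, beside 6.31% and 6.34% of all genes. Of the genes for Wnt secretion and receptor maturation, Wls, the carrier of Wnts to the cell surface, read 1.91 and 3.29 in Control and 2.92 and 3.12 in Wnt3A, with overlap, and Mesd, a chaperone of Lrp5 and Lrp6, differed by 0.51 ± 0.47.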

How the data were processed

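Intensities were deposited by the authors as a table with each column's median at 1; further steps behind it are not given in the sources used here. The scanner output, Agilent Feature Extraction 10.5.1.1 per the file headers, holds processed intensity and probe annotation on mm8. Table rows were joined to the scanner annotation by spot number. Repeated spots of a probe differed by 0.08 to 0.10 (median SD, log2) within table columns, against 3.41 to 3.51 over all spots, which bears out the join. The table is the main source because the selection rule names it. The members and lists were chosen with earlier results of these data known.

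Log2 intensities were centred on each array's 75th percentile and averaged over repeated spots (41174 probes). The floor was 4.94 times each column's 1st percentile, where 4.94 is the median over scanner files of the lowest signal flagged well above background divided by the file's 1st percentile. Probes above it on both arrays of a group were kept (33709). The brightest kept probe on average stands for its gene. The test was that of limma 3.58.1 under R 4.3.3 (two-sided, Benjamini-Hochberg over all kept probes, threshold 0.05, 2 residual and 2.29 prior degrees of freedom). The procedure was tested on simulated data.

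Genes were given with every array's value where the brightest probe's groups did not overlap and differed by at least 1 (log2), or where probes disagreed on the floor in Control, with Wnt3a in any case; further genes were given by choice after their values were seen. Other pathway genes were named where they passed or had the 2 smallest p of their list. Alternatives were the scanner values (processed signal, or normexp with offset 50), quantile or no scaling, other filters and floors, the mean of a gene's probes, trend and robust settings, the replicate number as a block, and leaving out each array. Probe symbols came from RefSeq through the accession for 24375 probes. Precision is limited by having 4 arrays. One marker of the haematopoietic list is not reported here.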

Additional observations from a re-analysis of the deposited data

How the results depend on the processing

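Within the table, the direction of every gene named by the rule with a fitted difference held in all alternatives, except Wnt3, whose difference ranged from -0.070 to 0.62 when 1 array was left out (-0.070 lacking Wnt3A replicate 2, -0.014 lacking Control replicate 2). The call changed for Wnt10b only, which passed with a floor 2 times as high (3.47, adjusted p 0.0383), by averaging all kept probes (3.47, 0.0348) and with trend and robust settings (3.47, 0.0254), so that 1 member was called higher in each of these. Other pathway genes called higher numbered 2 unfiltered, 1 when every array had to be above the floor and 7 by averaging probes. Over all genes, 92 were called higher and 55 lower. They numbered 20 and 15 unfiltered, 21 and 13 when every array had to be above the floor, 84 lower with a floor 2 times as high, 96 lower with the mean of probes and 107 lower with trend and robust settings. Leaving out 1 array gave 0 to 0 genes called in either direction, and 0 to 0 pathway genes, with 2284 to 2816 genes at an unadjusted p under 0.05 in limma.

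The same replicate numbers in both groups were checked as pairs. Deviations from group means correlated at 0.0124 between arrays of the same number. With so few arrays in a group, every replicate number gives this same value by construction, so it is not repeated evidence. Whether arrays of the same number shared a culture, a transduction or a handling step cannot be settled by it. With the replicate block limma called 0 genes higher, 0 lower and 0 pathway genes, with 2737 genes, 5 of them members, at an unadjusted p under 0.05, and the Wnt10b adjusted p was 0.127.

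The scanner files gave other values, and the cause was not tested. They called 0 genes higher with either signal, and 2 lower with the processed signal or 0 with normexp, with 480 and 220 at an unadjusted p under 0.05, and 0 pathway genes higher. Member medians were -0.29 (processed signal) and -0.40 (normexp), beside -0.09 and -0.24 over all genes, and pathway medians were -0.31 and -0.34. Differences turned sign for Wnt5a (-0.41 and -0.88), Wnt10b (-0.14 and -0.23), Dvl3 (-0.77 and -0.79) and Porcn (-0.13 and -0.61) with both signals, for Fzd8 (-0.064) with the processed signal, and for Wnt3 (-0.61), Fzd2 (-0.84) and Fzd9 (-0.068) with normexp. In Control replicate 1 the scanner signal of Wnt3, Wnt5a, Fzd2 and Porcn was not well above background, so these 4 differences rest on a value that is only a bound. Wnt2b, Fzd1 and Fzd3 were not well above background in both files of either group and have no scanner difference. Both Control scanner files had 23 members well above background, beside 49.9% of all genes.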

Other observations

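In the scanner files the probes of the ligands described above read as follows, as processed signal. Wnt5a read 7.79 and 52.2 for Control and 62.1 and 58.3 for Wnt3A. Wnt10b read 28.1 and 543 for Control and 465 and 421 for Wnt3A. Wnt2b read 2.34 and 306 for Control, where only replicate 2 was well above background, and 21.3 and 4.09 for Wnt3A, where only replicate 1 was. Wnt3a read 9.46 and 61 for Control, where only replicate 2 was well above background, and 12.4 and 2.50 for Wnt3A, where only replicate 1 was. Control replicate 1 was the faintest file, with 41.8% of spots well above background against 71.6% to 85.7% in the others. It is the lowest of the 4 for Wnt10b, and for Wnt5a and Wnt2b, where it was not well above background, but not for Wnt3a. These values are not scaled between files, whose median signals were 7.32 and 178 for Control and 147 and 95.0 for Wnt3A. After scaling, the Wnt5a difference is -0.41 (log2, Wnt3A minus Control) and that of Wnt10b -0.14.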
